A study of Arabidopsis thaliana with 4 samples.

Results

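The 9 genes described here build and maintain the Arabidopsis root: the patterning and stem cell genes SHR (AT4G37650), SCR (AT3G54220), PLT1 (AT3G20840), PLT2 (AT1G51190) and WOX5 (AT3G11260), and the lateral root genes LBD16 (AT2G42430), LBD18 (AT2G45420), LBD29 (AT3G58190) and LBD33 (AT5G06080). They were chosen by name, and every peak that overlapped a gene body or the 1 kb on either side of it was taken, from each of 4 peak lists. That gave 46 peaks at 9 of 27444 nuclear protein-coding genes: 6 of 16126 in ODD 1, 20 of 58146 in ODD 2, 14 of 20470 in EVEN 1 and 6 of 12546 in LACZ 1. The lists come from ChIRP-seq, in which biotinylated oligonucleotides complementary to an RNA pull down the chromatin near it. The target here was APOLO, an Arabidopsis long noncoding RNA. Probes against APOLO came as an ODD set (2 libraries) and an EVEN set (1 library), and LACZ probes (1 library) served as control. All 4 libraries, controls included, came from Col-0 plants that carried the full-length APOLO region driven by the constitutive 35S promoter. Levels of APOLO and its places of expression in these plants may therefore differ from those in wild-type roots. The labels give no age, organ or treatment, and no plants without the transgene were used here, so the signal cannot be assigned to root cells.

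SHR and SCR are transcription factors of the GRAS family. SHR protein moves from the inner root tissues into the adjoining layer, where it activates SCR, and together they set up the endodermis and the stem cell niche. PLT1 and PLT2, of the AP2 family, and WOX5, a homeodomain protein of the quiescent centre, keep the root stem cells in place. LBD16, LBD18, LBD29 and LBD33 belong to the plant-specific LOB-domain family, and LBD16, LBD18 and LBD29 act below the auxin response factors ARF7 and ARF19 when lateral roots start. LBD18 and LBD33 are known to bind together at the promoter of the cell cycle gene E2Fa. APOLO is itself an auxin-responsive transcript with reported roles in lateral root formation.

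Every one of the 9 genes had a peak with APOLO probes, but 5 of them also had one with the control probes. Of all genes, only 4.62% had no peak in any list and 0.940% had one in LACZ 1 alone. With the first ODD library, peaks stood at 4 of 9 genes (SHR, SCR, LBD16 and LBD33), against 48.9% of all nuclear protein-coding genes. In ODD 2, 9 of 9 genes had a peak, against 92.8% of all genes. In EVEN 1, 7 of 9 had one, all but SCR and LBD29, against 55.3% of all genes. In LACZ 1, 5 of 9 had one (SHR, PLT1, PLT2, LBD18 and LBD33), against 41.3% of all genes. Every list was also cut to the length of LACZ 1, by keeping its own 12546 peaks of highest −log10 q. The genes with a peak were then 3 of 9 in ODD 1, 3 in ODD 2, 6 in EVEN 1 and 5 in LACZ 1. The shares of all genes were 41.1%, 44.7%, 38.8% and 41.3%. Each count with whole lists lies within about 2 genes of what the share of all genes would give for 9. With a single EVEN and a single LACZ library, and no value in a list outside its peaks, nothing was tested across replicates.

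**Figure D1:**
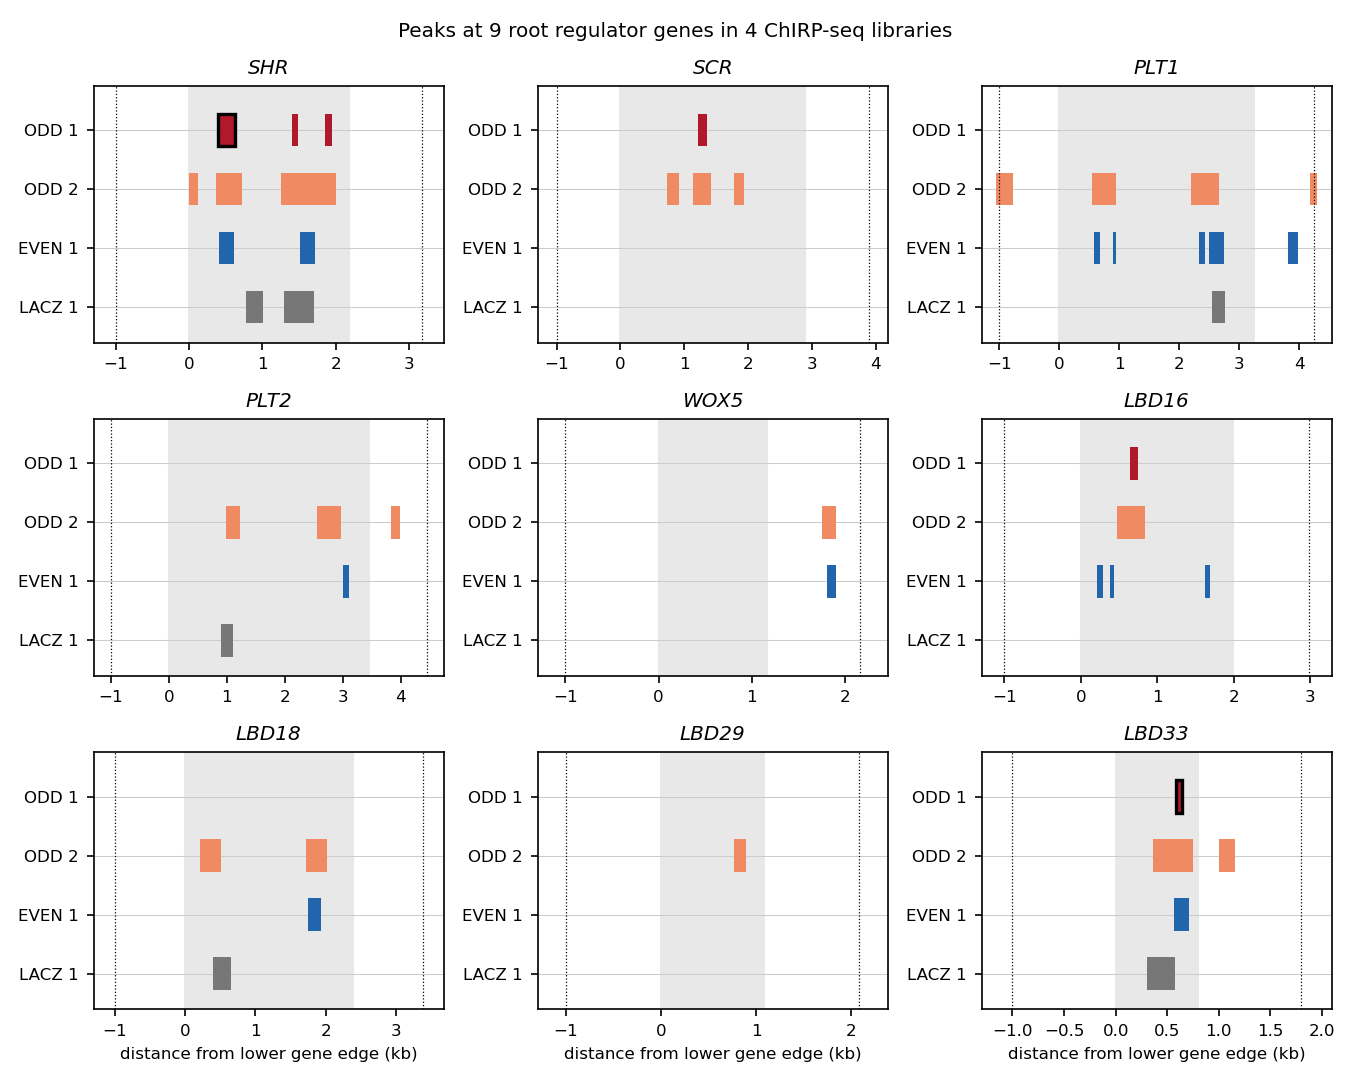
Peaks of the 4 lists at each of the 9 genes. The horizontal axis is the distance in kb from the edge of the gene body with the lower coordinate; the grey block is the gene body, dotted lines mark 1 kb on either side, coloured bars are peaks to scale in ODD 1, ODD 2, EVEN 1 and LACZ 1, and a black outline marks the 2 candidate regions. The peaks at WOX5 lie outside its gene body, and those at SHR include a place held by both ODD lists and EVEN 1 but not by LACZ 1.

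At SHR, both ODD lists and EVEN 1 shared a place that LACZ 1 did not hold. An ODD 1 peak at chr4:17692087-17692312 (TAIR10), inside the gene, had a fold enrichment of 5.96 over local background. The fold is the authors' value for each peak and is comparable only within a list, so its rank in the list is given too; this peak stood 30.7% down the ODD 1 list from the highest fold. The ODD 2 peak over it, at chr4:17692053-17692408, had a fold of 7.92, 10.4% down its own list. Their summits were 5 bp apart. The EVEN 1 peak at chr4:17692102-17692303 lay wholly within the ODD 1 peak, with a fold of 3.54, 41.7% down its list, and its summit was 48 bp from that of ODD 1. No LACZ 1 peak touched this place. The nearest one, at chr4:17692463-17692693 with a fold of 2.74, began after a gap of 150 bp from the ODD 1 peak and of 54 bp from the wider ODD 2 peak.

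Farther along the SHR gene the control probes gave signal as well. ODD 1 had peaks at chr4:17693091-17693166 and chr4:17693535-17693640, with folds of 3.90 and 4.26. A single ODD 2 peak of 752 bp, the widest of the 46, covered both and had a fold of 6.14. EVEN 1 had a peak at chr4:17693200-17693400 with a fold of 3.53. A LACZ 1 peak of 418 bp at chr4:17692975-17693392 overlapped the first of these ODD 1 peaks, the ODD 2 peak and 193 bp of the EVEN 1 peak. Its fold of 2.34 was among the lowest of the control list, 95.0% down. The third ODD 2 peak, across the edge of the gene at chr4:17691681-17691814, had a fold of 3.40 and no partner in another list.

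SCR, the gene that SHR activates, had peaks with the ODD probes and with no others. Its ODD 1 peak at chr3:20071195-20071346 had a fold of 5.64. It lay inside the ODD 2 peak at chr3:20071123-20071402. The fold of that peak, 10.5, was the highest of the 20 ODD 2 peaks at the 9 genes and 3.2% down the ODD 2 list. Neither EVEN 1 nor LACZ 1 had a peak at SCR. ODD 2 had 2 more there, with folds of 4.29 and 2.20. The combination of ODD 1 and ODD 2 peaks with neither EVEN 1 nor LACZ 1 was found at 3014 genes, or 11.0% of all.

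PLT1 and PLT2 had peaks in ODD 2, EVEN 1 and LACZ 1 and none in ODD 1. PLT1 had the most EVEN 1 peaks of the 9 genes, 5, with folds of 3.68, 3.41, 2.53, 4.73 and 5.16 in order along chromosome 3. The first pair, at chr3:7301024-7301117 and chr3:7301341-7301394, fell within or at the end of an ODD 2 peak at chr3:7300987-7301381 (fold 3.31), which no LACZ 1 peak touched. At the other end of the gene the EVEN 1 peak at chr3:7302939-7303182 (fold 4.73) and the ODD 2 peak at chr3:7302642-7303106 (3.58) both overlapped a LACZ 1 peak at chr3:7302989-7303213 (2.79). The highest EVEN 1 fold, 5.16 and 6.5% down the list, belonged to a peak at chr3:7304260-7304432 whose summit lay in the neighbouring gene AT3G20850. ODD 2 had a peak 186 bp farther on, with a fold of 2.57, also with its summit in AT3G20850, and another at chr3:7299389-7299663 with a fold of 4.37. These last 2 peaks each ran across the outer limit of a 1 kb flank.

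At PLT2 no place was shared by both probe sets. ODD 2 had peaks at chr1:18978155-18978393, chr1:18979722-18980135 and chr1:18981001-18981165, with folds of 2.91, 3.58 and 4.46. The single EVEN 1 peak, at chr1:18980173-18980276 with a fold of 3.41, missed the second of these by 37 bp. The LACZ 1 peak at chr1:18978070-18978274 had a fold of 3.59, 19.3% down the control list, and overlapped the first ODD 2 peak by 120 bp. The best ranked APOLO-probe peaks at PLT2 stood 32.2% down in ODD 2 and 46.5% down in EVEN 1, ranks that lists of unequal length do not make comparable.

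WOX5 had no peak in its gene body in any of the 4 lists. The rule took an ODD 2 peak at chr3:3529031-3529182, fold 3.18, and an EVEN 1 peak inside it at chr3:3529089-3529180, fold 2.89. Both summits, 16 bp apart, lay in the neighbouring gene MEE34. The EVEN 1 peak ranked 84.6% down its list.

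Among the lateral root genes, LBD16 had the highest ODD folds. Its ODD 1 peak at chr2:17663995-17664105 had a fold of 6.62, the highest of the 6 ODD 1 peaks and 22.9% down the list. The ODD 2 peak over it, at chr2:17663823-17664187, had a fold of 8.21 and stood 9.1% down its list. EVEN 1 had 3 peaks inside LBD16, with folds of 3.15, 4.20 and 3.15, and none touched either ODD peak. The closest, at chr2:17663729-17663782, ended 40 bp before the ODD 2 peak and 212 bp before the ODD 1 peak. LACZ 1 had no peak at LBD16.

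At LBD18 the EVEN 1 and control peaks lay at different ends of the gene, with an ODD 2 peak at each. ODD 2 and EVEN 1 shared a place at chr2:18720067-18720363 and chr2:18720097-18720277, with folds of 4.24 and 4.46 and summits 16 bp apart, where LACZ 1 had no peak. The EVEN 1 peak stood 11.8% down its list. Toward the lower coordinate, an ODD 2 peak at chr2:18718558-18718860 with a fold of 5.30 overlapped a LACZ 1 peak at chr2:18718753-18719004 with a fold of 4.29. That was the control peak of highest fold at the 9 genes, 9.6% down the LACZ 1 list. ODD 1 had no peak within 1 kb of LBD18, but one stood 43 bp beyond that limit, at chr2:18721772-18721859 with a fold of 5.67. ODD 2 had a peak over the same place with a fold of 8.35, 21 bp beyond the limit and in no annotated gene. The limit of 1 kb therefore decides whether LBD18 counts as held by ODD 1.

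LBD29 had 1 peak in all, from ODD 2, at chr3:21549256-21549375. Its fold of 2.52 ranked 84.6% down the list. The smallest member, LBD33, had peaks in all 4 lists close together. The ODD 1 peak at chr5:1831255-1831311 was 57 bp wide, rested on a pileup of 6 fragments, the lowest in the list, and had a fold of 3.26, 97.1% down. It lay inside the EVEN 1 peak at chr5:1831239-1831380 (fold 3.94) and the ODD 2 peak at chr5:1831037-1831417 (4.02). The LACZ 1 peak at chr5:1830977-1831249, with a fold of 2.76, ended 5 bp before the ODD 1 peak. It overlapped the EVEN 1 peak by 11 bp and the ODD 2 peak by 213 bp. A stronger ODD pair near LBD33, with folds of 7.57 in ODD 1 and 9.99 in ODD 2, lay 1823 and 1637 bp from the gene, in the gene RBE, and did not count for LBD33.

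**Figure D2:**
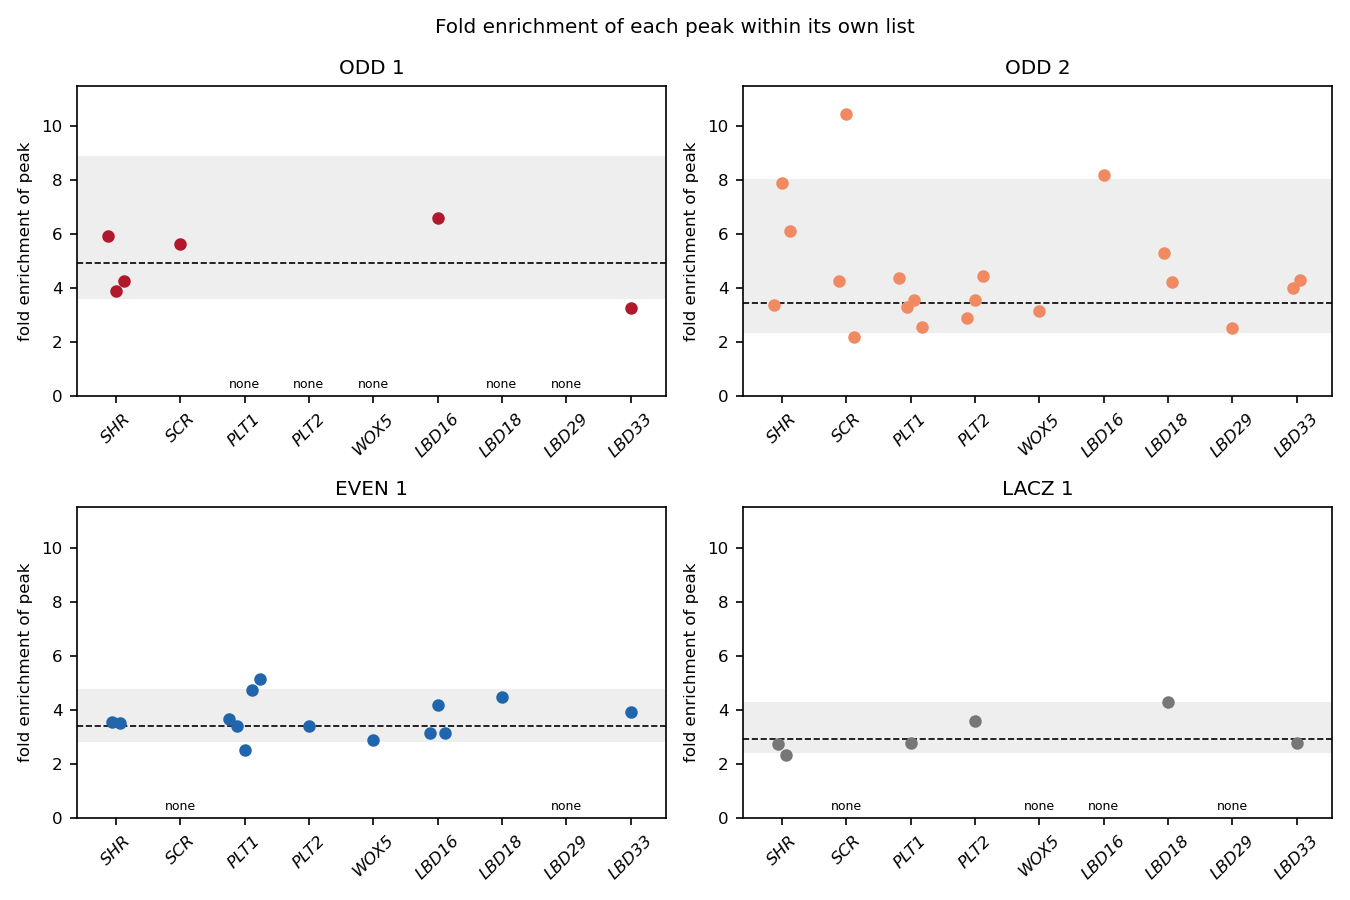
Fold enrichment of every peak at the 9 genes, in 1 panel per list. The vertical axis is the authors' fold on a linear scale, each point is a peak, the dashed line is the median of all nuclear peaks of that list, and the grey band holds the middle 80% of them. Most points lie within the band of their own list. Above it lie the highest SCR peak and the LBD16 peak of ODD 2, the highest PLT1 peak of EVEN 1 and the LBD18 peak of LACZ 1, and the PLT1 peak with a fold of 4.73 lies at its edge. Below it lie the LBD33 peak of ODD 1, the lowest SCR peak of ODD 2, the lowest PLT1 peak of EVEN 1 and the lowest SHR peak of LACZ 1.

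A candidate region was an ODD 1 peak that overlapped an EVEN 1 peak by at least 1 bp and no LACZ 1 peak. By that definition 2 of 9 genes had one, SHR and LBD33, against 11.1% of all genes. With ODD 2 in place of ODD 1, 4 of 9 genes had one, against 31.9% of all genes. They were SHR, PLT1, WOX5 and LBD18. SHR was the only member with a candidate region under both ODD libraries, and the share of all genes with one under both was not counted. LBD33 dropped out with ODD 2 because the wider ODD 2 peak reached the LACZ 1 peak. Neither SHR nor LBD33 kept its call when no LACZ 1 peak was allowed within 500 bp. Nor did either with −log10 q of at least 5, where both lost the EVEN 1 peak and LBD33 also the ODD 1 peak, whose −log10 q was 1.88. The share of all genes with a candidate region under these stricter rules was not counted.

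All 6 ODD 1 peaks overlapped an ODD 2 peak, against 94.8% of the whole ODD 1 list, and 4 of 9 genes had such a pair, against 47.5% of all genes. ODD 2 is the longest list, and of its 20 peaks at the 9 genes 5 overlapped an ODD 1 peak (24.7% of the list), 7 an EVEN 1 peak (19.1%) and 5 a LACZ 1 peak (13.0%). Of the 6 ODD 1 peaks, 2 overlapped an EVEN 1 peak (24.0% of the list) and 1 a LACZ 1 peak (13.4%). Of the 14 EVEN 1 peaks, 9 overlapped an ODD 2 peak (59.5% of the list), 2 an ODD 1 peak (19.1%) and 3 a LACZ 1 peak (18.6%). Of the 6 control peaks, 5 overlapped an ODD 2 peak (56.0% of the list), 3 an EVEN 1 peak (26.6%) and 1 an ODD 1 peak (15.6%).

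The peaks at the 9 genes lay mostly inside the gene bodies. Of the 46, 38 were wholly inside, 1 crossed a gene edge and 7 were in the flanks, where 61.8%, 4.20% and 34.0% were the shares over all genes and lists. Those shares count a peak once for each gene whose window it meets, and 69124 of the 125264 such pairs are from ODD 2. Of the 9 genes, only SCR, PLT1, WOX5 and LBD16 had another annotated gene reaching into their window. How this bears on the comparison was not tested. By list, 6 of 6 ODD 1 peaks were inside, against 61.0% over all genes, and 6 of 6 LACZ 1 peaks, against 61.7%. In ODD 2, 14 of 20 were inside, against 60.0%, and in EVEN 1, 12 of 14, against 67.8%. The 7 in the flanks were 5 of ODD 2 and 2 of EVEN 1, at PLT1, PLT2, WOX5 and LBD33. EVEN 1 averaged 1.56 peaks a gene at the 9, against 0.850 over all genes, and 5 of its 14 were at PLT1. The averages were 0.667 against 0.682 in ODD 1, 2.22 against 2.52 in ODD 2, and 0.667 against 0.514 in LACZ 1.

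The local background behind the folds differed between lists and loci. Whether it came from the library itself or from a control library is not known. Read totals were not used here, so depth is unknown. The local background of a peak, recovered from its pileup and fold on the basis that MACS2 adds 1 to both terms of the ratio, had a lowest value of 1.11 fragments in ODD 1, 6.55 in ODD 2, 2.81 in EVEN 1 and 6.23 in LACZ 1. SHR had the highest of the 9 genes in the APOLO-probe lists, with 1.81 to 1.85 in ODD 1, 12.5 to 13.2 in ODD 2 and 3.52 to 3.81 in EVEN 1, against list medians of 1.38, 7.75 and 3.17. SCR (9.44 to 10.6) and LBD33 (9.43 to 9.67) were also above the ODD 2 median. In LACZ 1 the background of SHR was 6.66 to 6.68, below the median of 7.14. The peaks of WOX5, LBD16, LBD18 and LBD29 all sat at the lowest value of their list. So did 20.6% of all peaks in ODD 1, 28.2% in ODD 2, 30.7% in EVEN 1 and 28.6% in LACZ 1. At the 9 genes, 1 of 6, 10 of 20, 9 of 14 and 3 of 6 peaks sat there, in the same order. Whether background bears on which genes were called was not tested.

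Presence and absence across the 4 lists split the 9 genes into 6 patterns, none of them rare. SHR and LBD33 had peaks in all 4 lists, as did 4398 genes or 16.0% of all. PLT1, PLT2 and LBD18 lacked only ODD 1, as did 2805 genes (10.2%). LBD16 lacked only LACZ 1 (4179 genes, 15.2%), WOX5 had ODD 2 and EVEN 1 (3393 genes, 12.4%) and LBD29 had ODD 2 alone (3924 genes, 14.3%). Likeness to SHR and LBD33 was measured over the 4 libraries as the sum of absolute differences in log2 of the highest fold. The genes most like SHR were JAL33 (0.084), AT4G38380 (0.093) and AT2G43850 (0.18), and those most like LBD33 were AT1G33860 (0.10), AT4G17780 (0.25) and BAG3 (0.28).

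Genes that work with the 9, or only belong to the same families, were counted from 5 lists. The lists were drawn up from textbook knowledge, or by symbol or synonym for the LBD family, with earlier results of these data known. The shares of all genes to read them against are those above, 48.9% in ODD 1, 92.8% in ODD 2, 55.3% in EVEN 1, 41.3% in LACZ 1 and 11.1% for candidate regions. In the SHR and SCR network, 1 of 7 genes had a candidate region: JKD, a zinc finger protein that binds SHR and SCR, at chr5:748163-748374, with folds of 9.25 in ODD 1, 11.3 in ODD 2 and 4.81 in EVEN 1. LACZ 1 had no peak at JKD. The cyclin gene CYCD6;1, a target of SHR and SCR, had ODD 2 peaks only. Of the other PLT-related AP2 genes, 1 of 6 had a candidate region, the organ growth gene ANT, with folds of 7.15 in ODD 1, 9.997 in ODD 2 and 3.15 in EVEN 1, and a LACZ 1 peak elsewhere at the gene (2.63). Of the other WOX genes, 2 of 14 did. They were WOX2, a gene of embryo patterning (4.97 in ODD 1, 8.60 in ODD 2 and 5.52 in EVEN 1), and WOX13 (5.83, 8.36 and 2.72), whose region had its summit in the neighbour AT4G35540. LACZ 1 had no peak at WOX2 and one elsewhere at WOX13, with a fold of 4.28.

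All 9 genes of lateral root initiation had an ODD 1 peak, against 48.9% of all genes, and 6 of 9 a LACZ 1 peak, against 41.3%. The median window in this list was 4502 bp, against 4078 bp over all genes, and its part in these counts was not tested. Candidate regions stood at 2 of the 9, against 11.1% of all genes. IAA28, an Aux/IAA repressor, had 2, with ODD 1 folds of 6.15 and 8.36 and EVEN 1 folds of 4.20 and 5.98, and no LACZ 1 peak. LRP1, a gene expressed in lateral root primordia, had one at chr5:3988285-3988536, with folds of 13.7 in ODD 1, 9.16 in ODD 2 and 3.80 in EVEN 1. LACZ 1 had 2 peaks at the gene, outside the ODD 1 peak. With ODD 2 in place of ODD 1, LRP1 had no candidate region. ARF7 (listed as NPH4) and ARF19, the auxin response factors above the LBD genes, had ODD 1 folds of up to 3.79 and 11.9 and EVEN 1 folds of 2.99 and 3.45, with 1 and 3 control peaks and no candidate region.

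Of the other LBD genes, 5 of 36 had a candidate region, against 11.1% of all genes. Among these 5, LBD40 had the highest ODD folds, 12.8 in ODD 1, 11.9 in ODD 2 and 5.25 in EVEN 1, at chr1:25054478-25054777. LBD21, LBD41 and LBD35 followed with ODD 1 folds of 5.87, 5.60 and 4.81, and LBD26, added to complete the count after its values were seen, had 3.25 in ODD 1 and 9.0 in EVEN 1. The summits at LBD21 and LBD35 lay in neighbouring genes, and of the 5 only LBD35 had a LACZ 1 peak within 1 kb, with a fold of 4.07. ODD 1 peaks stood at 12 of the 36 genes, against 48.9% of all, ODD 2 at 31, against 92.8%, EVEN 1 at 22, against 55.3%, and LACZ 1 at 11, against 41.3%. No list had a peak at 5 of the 36 (LBD2, LBD5, LBD8, LBD9 and LBD32, named after their values were seen), against 4.62% of all genes. Each of the 9 root regulators had at least 1. The median window of these LBD genes was 3468 bp, against 4078 bp over all genes and 4173 bp for the 9, and its part in these counts was not tested.

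**Figure D3:**
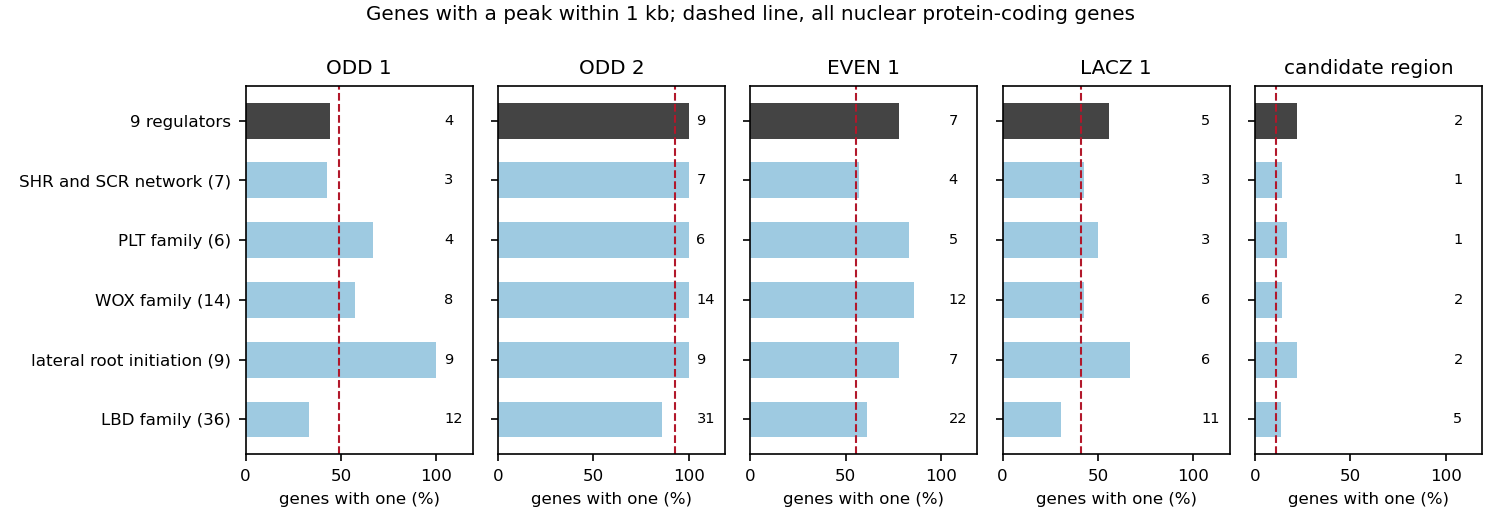
Share of genes with a peak within 1 kb, by list, and with a candidate region. The horizontal axes are percentages of the genes in each group, the dark bar is the 9 root regulators and the light bars are the 5 lists of related genes with their sizes, the number at the right of each row counts its genes, and the dashed line is the share of all nuclear protein-coding genes. The 9 regulators lie near the dashed line in ODD 1 and ODD 2 and to its right, by about 2 genes or fewer, in EVEN 1 and LACZ 1.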

How the data were processed

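For each of the 4 libraries the authors deposited 1 list of peaks on TAIR10. CASAVA 1.8.2, Trimmomatic, Bowtie2 and MACS2 were used, per the submitters' processing notes. How MACS2 was set, and whether it had a control library, is not given in the sources used here. A peak comes with limits, summit, pileup signal, fold enrichment over local background, and −log10 of p and of q, per the file headers. Each list holds the values of 1 library. Whether the local background came from that library or from a control is therefore unknown. Peaks on the 5 nuclear chromosomes were used.

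Gene bodies came from a RefSeq table of TAIR10.1, without strand, exons or sequence; its coordinates are not printed. The fit to the files was checked by moving all summits in steps of 200 bp, up to 2000 bp each way. The share of summits within 200 bp of a gene edge was lowest, 13.2%, at 0 bp, against 16.4% to 20.6% at other shifts. A gene held a peak that overlapped its body with 1 kb either side by at least 1 bp. Counts used Python 3.11.15 with pandas 2.3.3, and the overlap code was tested on simulated data.

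The 9 genes and the related lists were chosen with earlier results of these data known. All 9 are named; of related lists, genes with a candidate region, at most 4 by ODD 1 fold; and the 3 genes most like each member with a candidate region. Named outside this rule were CYCD6;1, ARF7, ARF19, LBD26, the LBD genes with no peak in any list, and the LBD neighbours of LBD16 and LBD18. LBD genes were found by symbol or synonym (40, the 4 members included). No test was run. The labels do not say whether libraries came from separate plants.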

Additional observations from a re-analysis of the deposited data

How the results depend on the processing

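Of 252 counts of peaks per gene and library, 217 stayed within 1.5 times under the other windows, thresholds, list lengths and summit rule. That total includes counts of 0, which a narrower window or stricter threshold could not change. With −log10 q of at least 5, 12 counts moved and 24 did not, and with lists of equal length 10 moved and 26 did not. The group counts of genes with a peak stayed within 1.5 times with gene bodies alone, with 500 bp or 2 kb either side and with summits in the window. With −log10 q of at least 5, the 9 genes had 3 peaks at 3 genes in ODD 1, 16 at 8 in ODD 2, 3 at 2 in EVEN 1 (PLT1 and LBD18) and 2 at 2 in LACZ 1 (PLT2 and LBD18), against 28.8%, 84.9%, 12% and 16.7% of all genes with a peak, and 0 candidate regions. With −log10 q of at least 2, with lists of equal length and with summits within 200 bp, 1 gene had a candidate region, SHR each time. It was 0 with no LACZ 1 peak within 500 bp, and 2 with overlaps of at least 50% or with no LACZ 1 exclusion. The share of all genes with a candidate region was not counted under these settings, so a loss at the 9 genes cannot be told from a loss everywhere. In lists of equal length there were 5 peaks at 3 genes in ODD 1, 4 at 3 in ODD 2 (SHR, SCR and LBD16 in both), 10 at 6 in EVEN 1 and 6 at 5 in LACZ 1. Using 1 ODD library, candidate regions stood at 2 genes (without ODD 2) to 4 genes (without ODD 1). ODD peaks stood at 4 genes in ODD 1 alone and 9 in ODD 2 alone, against 4 in both. Over genes with windows as wide as those of the 9 genes (2797 to 5443 bp), the share with a peak was 93.8% in ODD 2 and 40.6% in LACZ 1, and the share with no peak in any list was 3.60%. No paired analysis was possible because ODD, EVEN and LACZ share only 1 replicate number. The depth of the libraries was not known, and a missing peak does not show missing signal.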

Other observations

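Among the LBD genes, 2 of the members have an LBD gene next to them with no gene between, and each neighbour had peaks in the same lists as the member while sharing none of its peaks. AT2G42440 (LBD17, listed as ASL15), beside LBD16, had 1 peak each in ODD 1, ODD 2 and EVEN 1, with folds of 4.73, 3.58 and 3.15, and none in LACZ 1. LBD19, beside LBD18, had none in ODD 1, 3 in ODD 2 (fold up to 3.84), 1 in EVEN 1 (4.20) and 1 in LACZ 1 (3.88). These pairs were noticed after their values were seen and were not tested. The pattern of LBD16 was found at 15.2% of all genes and that of LBD18 at 10.2%. How often adjacent genes share a pattern was not counted.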
